A study of Mus musculus with 24 samples.

Results

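C/D box small nucleolar RNAs are short nuclear RNAs that pair with ribosomal or spliceosomal RNA and place a methyl group on the ribose of a chosen nucleotide, and a few of them are needed for cutting the ribosomal RNA precursor. Each carries a C box near its 5′ end and a D box near its 3′ end, where the proteins Snu13, Nop56, Nop58 and the methyltransferase fibrillarin assemble. In mammals most are cut out of introns of host genes, many of which encode ribosomal proteins or translation factors, after the intron has been spliced out and opened. The rows described here are those whose gene symbol is Snord followed by a digit. The pattern matched 69 of 24015 rows of the count table, and 61 with a total of 10 or more counts over 24 libraries are described. Of the other 8, Snord90 had 8 counts and Snord38a had 4, while the members nearest above the limit, Snord1c and Snord123, had 15 and 16. The remaining 6 (Snord1a, Snord116, Snord116l1, Snord116l2, Snord7 and Snord45c) had 0 counts, which allows up to 3 counts in all, or 0.00482 CPM (counts per megacount of library) over all libraries. Snord116, known from brain, is expressed from the imprinted Snurf-Snrpn region.

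The libraries came from livers of female B6C3F1 mice, bought at 5 to 6 weeks of age. Animals 41, 42, 43 and 44 were given furan, a liver toxicant formed when food is heated, at 8 mg per kg per day by gavage in corn oil for 21 days, and animals 2, 3, 4 and 6 were given corn oil alone. Livers were collected 4 hours after the final gavage, and each liver was split into 3: snap frozen, embedded in paraffin after 18 hours in formalin (FFPE 18 h), or embedded after 3 weeks in formalin (FFPE 3 weeks), giving 6 groups of 4 libraries: furan frozen, control frozen, furan FFPE 18 h, control FFPE 18 h, furan FFPE 3 weeks and control FFPE 3 weeks. The frozen pieces had RNA integrity numbers above 8.9. Fixed pieces were extracted with another kit, from 1 section of 10 µm (18 hours) or 2 such sections (3 weeks), with integrity numbers of 1.3 to 2.4. Fixation time, kit, input and piece of liver cannot be told apart in these data. All libraries were made from total RNA depleted of ribosomal RNA and sequenced. In such libraries reads from a C/D box RNA, from its spliced-out intron or from unspliced host transcript can fall in the same interval and be counted alike. All groups share the gavage with corn oil and the strain.

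The 7 sequences below are shown because they carry the results: the 3 RNAs that fell with furan after 18 hours in formalin (Snord15b, Snord17, Snord22), the less counted RNA from the same host as the first (Snord15a), and 3 with large rises in fixed tissue (Snord104, Snord49b, Snord8). They are mouse GENCODE M21 transcripts (build GRCm38), 5′ to 3′, with the C box motif TGATGA and the D box motif CTGA in capitals where a strict match lies within 30 bases of the matching end.
Snord15b: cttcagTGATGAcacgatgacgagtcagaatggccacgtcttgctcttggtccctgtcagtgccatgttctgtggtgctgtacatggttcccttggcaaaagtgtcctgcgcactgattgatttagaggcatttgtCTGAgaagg
Snord15a: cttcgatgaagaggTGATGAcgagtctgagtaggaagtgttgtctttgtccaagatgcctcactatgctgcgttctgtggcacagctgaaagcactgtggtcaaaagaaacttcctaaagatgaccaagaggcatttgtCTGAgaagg
Snord17: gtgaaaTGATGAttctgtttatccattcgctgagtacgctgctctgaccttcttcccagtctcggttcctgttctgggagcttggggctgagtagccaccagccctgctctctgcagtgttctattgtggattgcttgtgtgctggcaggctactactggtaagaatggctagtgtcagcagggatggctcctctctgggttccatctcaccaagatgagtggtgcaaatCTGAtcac
Snord22: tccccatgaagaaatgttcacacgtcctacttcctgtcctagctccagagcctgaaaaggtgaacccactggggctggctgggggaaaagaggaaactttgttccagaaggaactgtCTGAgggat
Snord104: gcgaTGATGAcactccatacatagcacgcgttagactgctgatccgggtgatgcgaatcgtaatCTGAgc
Snord49b: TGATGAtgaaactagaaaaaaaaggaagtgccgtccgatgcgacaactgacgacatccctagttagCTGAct
Snord8: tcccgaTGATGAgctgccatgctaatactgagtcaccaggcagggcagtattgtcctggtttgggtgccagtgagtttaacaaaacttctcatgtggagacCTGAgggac

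Snord15b and Snord15a lie on chromosome 7 in Rps3, the gene of a small-subunit ribosomal protein, Snord17 on chromosome 2 in an intron of Snx5, a sorting nexin gene, and Snord22 on chromosome 19 in the non-coding host Snhg1. Snord8 lies on chromosome 14 in an intron of Chd8, a chromatin remodeller gene, Snord49b on chromosome 11 in an intron of 2410006H16Rik, and Snord104 on chromosome 11 with no gene around it on its strand. Over the 61 members, CTGA stood within 30 bases of the 3′ end in 60 (98.4%) and TGATGA within 30 bases of the 5′ end in 38 (62.3%), searched on the RNA strand. In 42 transcripts of the H/ACA box class, the small nucleolar RNAs that guide pseudouridine, the same windows held CTGA in 8 (19.0%) and TGATGA in 0. Snord22 and Snord16a are among those with no strict TGATGA in the window. Snord15a and Snord15b shared 66.0% of aligned positions, with a longest identical run of 21 bases. Snord1b and Snord1c (97.4%) and Snord88a and Snord88c (94.4%) are so alike that reads may be split between copies, and their counts are uncertain.

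In the annotation 60 of 61 members lay inside another gene on the same strand, and 58 had a host with a row in the count table. These 58 fell in 42 hosts, of which 12 held 2 or more members. Ribosomal protein genes, 12 of them, held 19 members, and 14 members lay in non-coding hosts. For 26 members the annotated RNA overlapped an exon of some host transcript, among them Snord15b, Snord22, Snord16a and Snord47, so that reads could be assigned to either gene. How the counting treated such reads is not stated.

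Library totals, in megacounts (M), spanned 38.0 to 49.3 M for frozen pieces, 22.9 to 28.1 M after 18 hours in formalin and 5.56 to 11.0 M after 3 weeks. Hepatocyte markers (6 of 6, Alb among them) were expressed in every group of libraries. A single frozen control library, from animal 3, stood apart within its group. It held 139 CPM of Snord17, while the other 3 frozen controls held 28.9 to 32.5, and it had reads in 34 members, against 52 to 55 in the other 3. Its Snord15a level of 9.09 CPM was above their 1.68 to 3.40, and its Snord47 level of 0.412 CPM was below their 1.69 to 2.27. Rn45s, the row of the ribosomal RNA precursor, took 0.251% of the counts of that library, the highest share among frozen libraries. Reads from mature ribosomal RNA can fall in the same row. The FFPE pieces of the same liver had 85.3 and 117 CPM of Snord17, inside the range of the other controls. The summed levels, the furan results for Snord17, Snord22 and Snord15b in frozen tissue and the Snord17 changes with fixation are given with and without that library. Other values from frozen tissue include it unless stated.

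All 61 members together took a small part of each library, and a larger one in fixed tissue. Frozen libraries gave 88.8 ± 7.35 CPM in furan livers and 132 ± 40.6 CPM in control livers (SD, n = 4 each), summed over members and scaled to library totals. Without animal 3, left out after its values were seen, the frozen controls averaged 112 ± 8.72 CPM (n = 3). FFPE 18 h libraries gave 238.5 ± 23.5 CPM in furan livers and 318.6 ± 18.3 CPM in control livers, and FFPE 3 weeks libraries 611 ± 89.6 and 640 ± 31.7 CPM in furan and control livers. Furan and control libraries did not overlap in frozen tissue (82.2 to 98.95 CPM in furan livers, 102 to 192 CPM in control livers) or in FFPE 18 h tissue (207 to 263 and 301 to 344 CPM), and they overlapped in FFPE 3 weeks tissue (511 to 726 and 595 to 664 CPM). Over the same libraries, H/ACA box RNAs gave 73.0 to 107 CPM in frozen, 308 to 487 CPM in FFPE 18 h and 1096 to 1705 CPM in FFPE 3 weeks tissue, and Rn45s took 0.0752% to 0.251%, 0.867% to 1.49% and 2.77% to 5.16% of counts. Whether the ribosomal RNA counted in Rn45s plays a part in the C/D box levels was not tested.

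**Figure D1:**
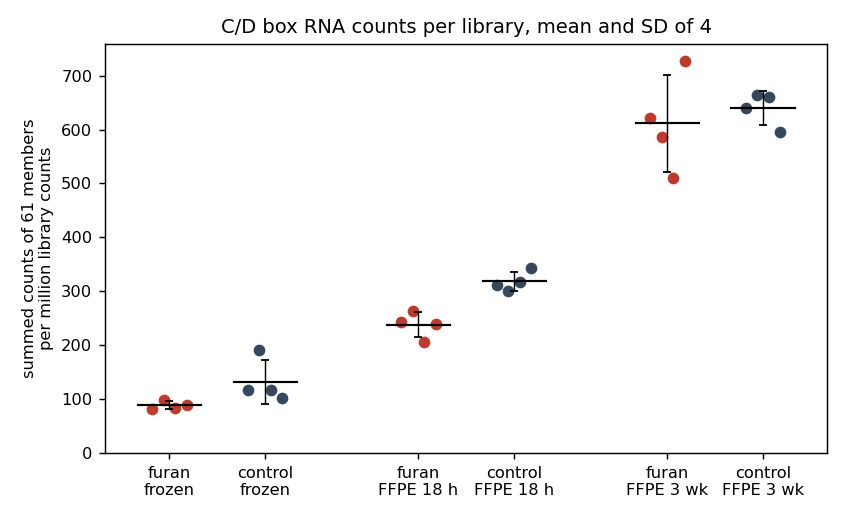
Summed CPM of the 61 C/D box RNAs, scaled to library totals (vertical axis) in each of 24 liver libraries, by treatment and preservation; points are libraries, lines the mean and bars the SD of 4. The frozen control library at 192 is that of animal 3, and FFPE 3 weeks libraries sit at 511 to 726.

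A few members made up most of this signal. Snord15b, a guide for 28S ribosomal RNA, held 35.1% of all C/D box counts, Snord17, another 28S guide, 25.8%, and Snord22, which in Xenopus is required for 18S ribosomal RNA processing, 14.6%, which together is 75.5%. Snord104 followed with 5.35%, Snord15a with 3.24%, Snord89 with 2.58% and Snord47 with 1.57%. The median frozen library had reads in 53.5 members, the median FFPE 18 h library in 54 and the median FFPE 3 weeks library in 36. With every library thinned to 5560002 counts the medians were 36.5, 43.5 and 36. At equal depth FFPE 3 weeks tissue was thus close to frozen tissue and remained below FFPE 18 h tissue. The cause of that gap was not tested.

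Most of the counts lay in the longest members. RefSeq lengths ran over 45 to 221 bases with a median of 68, and the 4 members of 100 bases or more (Snord22, Snord15b, Snord15a and Snord17) held 78.7% of the counts. In GENCODE, Snord89 (110 bases), Snord8 (110), Snord67 (111), Snord23 (109) and Snord43 (108) also reach 100 bases. The length classes below use RefSeq lengths and were not repeated with those of GENCODE. Per kilobase of RNA, the median of these 4 was 120 CPM in frozen, 346 in FFPE 18 h and 686 in FFPE 3 weeks tissue. In the classes under 60, 60 to 79 and 80 to 99 bases the medians per kilobase were 2.44, 3.22 and 2.65 CPM in frozen, 4.13, 6.10 and 3.43 in FFPE 18 h and 8.70, 14.8 and 27.5 in FFPE 3 weeks tissue, so that below 100 bases they followed the order of length in FFPE 3 weeks tissue alone. Snord104, of 73 bases in RefSeq, had 52.8, 217 and 500 CPM per kilobase in frozen, FFPE 18 h and FFPE 3 weeks tissue, above Snord15a, of 148 bases, with 24.2, 62.4 and 123. Snord89 (94 bases) and Snord47 (65 bases) were also above Snord15a in frozen (45.5 and 30.8) and FFPE 3 weeks tissue (154 and 176), and below it in FFPE 18 h tissue (59.5 and 44.5). The order per kilobase was Snord15b, Snord17, Snord22, Snord104 in frozen tissue (387, 177, 63.2 and 52.8). All frozen values per kilobase include the library of animal 3, which was high in Snord17 and Snord15a. After 3 weeks in formalin Snord22 stood at 871, behind Snord15b at 1163, and Snord17 and Snord104 were level at 500 each.

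**Figure D2:**
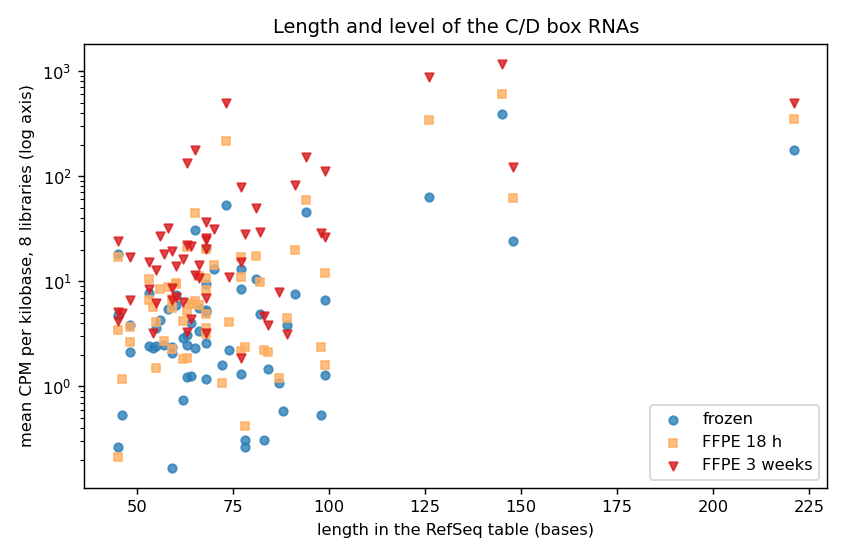
Mean CPM per kilobase over 8 libraries (vertical log axis) against the RefSeq length in bases (horizontal axis) for each C/D box RNA in frozen, FFPE 18 h and FFPE 3 weeks liver; members at 0 are left out. Snord15b, Snord17 and Snord22 (126 to 221 bases) are among the highest points in each tissue, and Snord104, at 73 bases, lies above Snord15a, at 148 bases.

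With furan, the 3 most counted C/D box RNAs fell in FFPE 18 h tissue: Snord15b, Snord22 and Snord17 were 1.44-fold, 1.47-fold and 1.31-fold lower than in controls, and no member rose. The test could be run on 30 of the 61 members there, and 3 were called, all lower, at an adjusted p below 0.05, beside 7.72% of all 14204 genes tested called lower, 7.82% called higher and 15.5% called in either direction. The called members were 10% of those tested. Log2 fold changes were positive in 15 members and negative in 15, with a median of -0.04. Of 31 H/ACA box RNAs tested there, 8 were called lower and 0 higher, with a median of -0.40. Lower calls with furan were thus seen in both classes. The C/D box share of 10% was near the 7.72% of all genes, so it is not read as a fall of the class. In frozen and FFPE 3 weeks tissue 0 of 27 and 0 of 31 H/ACA box RNAs were called. Members are tested where enough libraries hold reads, so the 30 are not a sample of all 61. In this bulk tissue, fewer cells of a type and less RNA per cell cannot be told apart. Of 5 sinusoidal endothelial cell markers, none at 0, 3 were called lower with furan in FFPE 18 h tissue, 1 in frozen and 0 in FFPE 3 weeks tissue (2, 0 and 0 when scaled to library totals). Their summed level was 326 to 335 CPM in furan and 403 to 434 CPM in control livers of FFPE 18 h tissue, 335 to 351 and 429 to 452 CPM in furan and control livers of frozen tissue, and 292 to 316 and 334 to 404 CPM in furan and control livers of FFPE 3 weeks tissue, with no overlap in any of them. Of 6 hepatocyte markers 2 were called lower in FFPE 18 h tissue, and their sums overlapped (97974 to 114295 CPM in furan and 99547 to 106433 CPM in control livers). Of the Kupffer, stellate, bile duct and lymphocyte markers none was called with furan in any preservation. The part of these cells in the C/D box levels was not tested.

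Snord15b, in TMM-scaled CPM, stood at 82.6, 78.6, 59.4 and 62.9 in the FFPE 18 h furan livers of animals 41 to 44, against 99.7, 100.01, 103.4 and 108.9 in the control livers 2, 3, 4 and 6. Every furan library was below every control, and the log2 fold change was -0.53 ± 0.09 (SE, n = 4 each, adjusted p = 0.00128). Snord22 stood at 31.5, 40.9, 31.2 and 34.6 CPM in furan livers, against 58.2, 42.7, 49.4 and 53.7 CPM in control livers. Its groups did not overlap either, although furan animal 42 and control animal 3 were close, and the log2 fold change was -0.55 ± 0.11 (adjusted p = 0.00204). Snord17 stood at 65.3, 78.5, 58.5 and 66.4 CPM in furan livers and 84.8, 85.3, 92.6 and 92.4 CPM in control livers. It was lower in 4 of 4 furan libraries, with a log2 fold change of -0.39 ± 0.08 (adjusted p = 0.00272). A fit over all 24 libraries, in which the frozen library of animal 3 also enters, gave Snord17 a log2 fold change of -0.40 with an adjusted p of 0.926 and ended its call.

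Snord89, the fourth member with no overlap in FFPE 18 h tissue, stood at 4.57, 4.56, 3.04 and 5.80 CPM in furan livers, against 6.76, 6.25, 6.96 and 6.84 CPM in control livers. Its log2 fold change of -0.56 ± 0.19 missed the threshold at an adjusted p of 0.0520. It passed with DESeq2 (adjusted p = 0.0268), with no low-count filter (0.0441) and without furan animal 44 (-0.72, adjusted p = 0.0252). No overlap with furan lower was seen in 4 of the 30 members tested and in 10.4% of all genes tested. Snord104 had 18.65 CPM in furan animal 41 and 9.92, 8.71 and 9.94 CPM in furan animals 42, 43 and 44, against 19.4, 19.3, 14.0 and 26.6 CPM in control livers. Its log2 fold change was -0.74 ± 0.29 (adjusted p = 0.142), and without animal 41 it was -1.06 (adjusted p = 0.00183).

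In frozen tissue the same RNAs were lower in furan livers in value, but 0 of 24 members tested were called, beside 2.78% of 14122 genes. Of the 24, 3 had an unadjusted p below 0.05 in edgeR, beside 18.4% of all genes, and DESeq2 called 1, Snord22 (adjusted p = 0.0340). Snord17 stood at 20.3, 21.1, 19.8 and 18.1 CPM in furan livers, against 32.4, 139, 32.5 and 28.9 CPM in control livers. All furan libraries were lower than all controls, as in 2 members and in 6.3% of all genes tested, while the size of the difference rested on animal 3: the log2 fold change was -1.55 ± 0.45 (adjusted p = 0.0972) with it and -0.66 (adjusted p = 0.000958) without it. Snord22 stood at 6.93, 6.12, 6.78 and 6.13 CPM in furan livers, against 11.9, 7.85, 8.23 and 9.75 CPM in control livers. It too was lower in every furan library, at -0.54 ± 0.17 (adjusted p = 0.121), and at -0.61 (adjusted p = 0.0216) without animal 3. Snord15b overlapped, with 46.3, 57.3, 48.3 and 52.7 CPM in furan livers and 72.7, 46.7, 68.9 and 56.7 CPM in control livers. Its log2 fold change was -0.26 ± 0.15 (adjusted p = 0.380), and -0.37 (adjusted p = 0.0431) without animal 3, the lowest of the controls for this RNA. Leaving out that animal thus gave 3 calls among the members in frozen tissue.

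In FFPE 3 weeks tissue the differences were small against the spread, and 0 of 30 members tested were called, beside 2.58% of 12983 genes. Of the 30, 1 had an unadjusted p below 0.05 in edgeR, beside 12.4% of all genes, and DESeq2 called 0. Snord15b stood at 186, 134, 138 and 185 CPM in furan livers, against 191, 178, 176 and 161 CPM in control livers, with a log2 fold change of -0.12 ± 0.12 (adjusted p = 0.828). Snord22 stood at 95.2, 95.7, 96.7 and 130 CPM in furan livers, against 116, 115, 113 and 117 CPM in control livers. In this RNA 3 furan libraries were below all controls and animal 44 was above them, and the log2 fold change was -0.12 ± 0.13 (adjusted p = 0.838). Snord17 had a log2 fold change of -0.18 ± 0.15 (adjusted p = 0.746). Snord49b was lower in every furan library (1.5, 8.18, 6.83 and 6.04 CPM in furan livers, 12.3, 9.76, 12.4 and 9.99 CPM in control livers), at -0.97 ± 0.47 (adjusted p = 0.396), and such no overlap with furan lower was seen in 4.8% of genes tested.

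The differences between preservations in the furan effect were tested as interactions, and edgeR called 0 members and 0 genes in each of the 3. Unadjusted p below 0.05 was reached by 0 of 36 members for FFPE 18 h minus frozen (1.61% of genes), 4 of 39 for FFPE 3 weeks minus frozen (4.1% of genes) and 6 of 41 for FFPE 3 weeks minus FFPE 18 h (5.31% of genes). The share of genes called is 0 in each, and DESeq2 called no member in any. For Snord15b the furan effect in FFPE 3 weeks tissue minus that in FFPE 18 h tissue was 0.41 ± 0.16 (log2, adjusted p = 0.784), and for Snord22 it was 0.43 ± 0.17 (adjusted p = 0.784). The calls in FFPE 18 h tissue are therefore not shown to be particular to that preservation. The pieces come from the same animals, so the 3 comparisons are not independent.

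**Figure D3:**
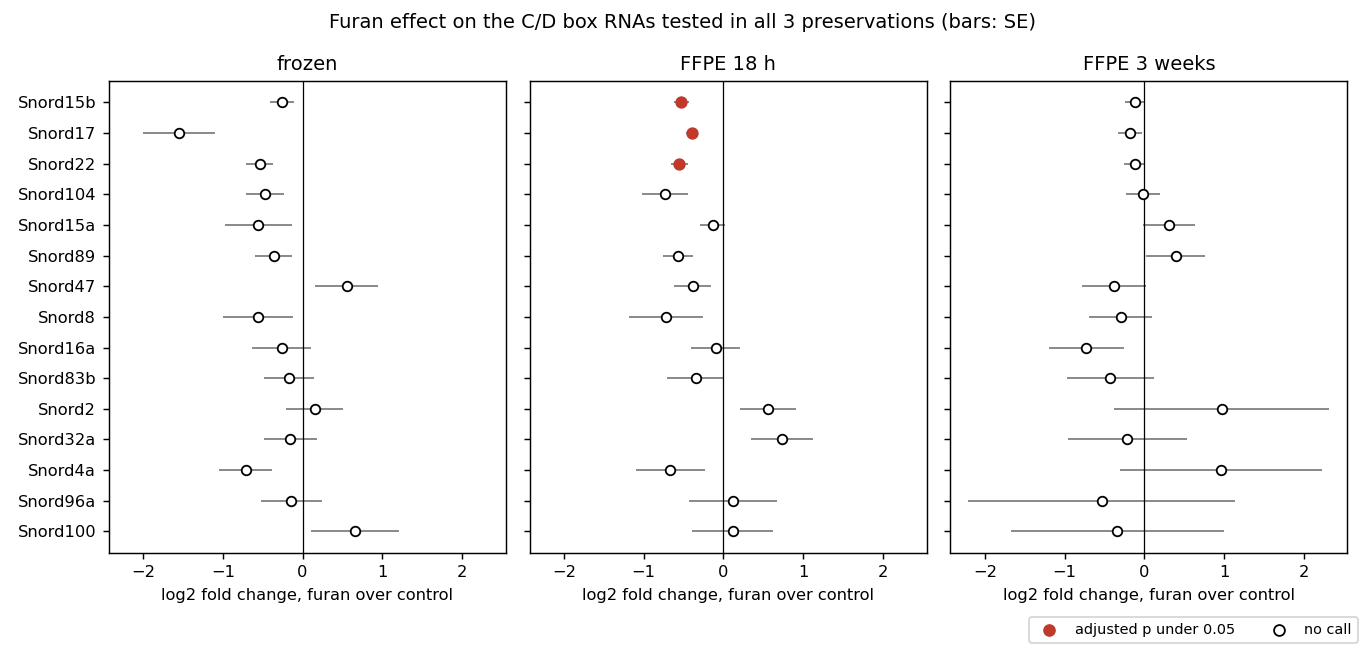
Log2 fold change, furan over control (horizontal axis), with its SE as bars, for the 15 C/D box RNAs tested in frozen, FFPE 18 h and FFPE 3 weeks liver, in order of total count; filled points have an adjusted p below 0.05. Snord15b, Snord17 and Snord22 are filled in FFPE 18 h tissue (-0.53, -0.39 and -0.55), and Snord17 lies farthest from 0 in frozen tissue (-1.55).

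The hosts of these RNAs were not called lower. In FFPE 18 h tissue Rps3, host of Snord15b, had a log2 fold change with furan of 0.09 ± 0.06 (adjusted p = 0.360), Snx5, host of Snord17, 0.11 ± 0.08 (adjusted p = 0.363) and Snhg1, host of Snord22, 0.16 ± 0.18 (adjusted p = 0.613). None was called. Of the proteins that bind these RNAs, Nop58, a core scaffold protein and itself a host gene, averaged 43.8 ± 7.04 CPM in furan livers and 21.8 ± 7.03 CPM in control livers of frozen tissue, with a log2 rise of 1.01 ± 0.22 (adjusted p = 0.0344). It rose by 0.80 ± 0.14 in FFPE 18 h tissue (adjusted p = 0.00155) and stood at 1.02 ± 0.32 (adjusted p = 0.0920) in FFPE 3 weeks tissue. Nop56, its partner, rose in FFPE 18 h tissue (0.45 ± 0.15, adjusted p = 0.0456). Fibrillarin (Fbl) and Snu13 (listed as Nhp2l1) were called in neither frozen nor FFPE 18 h tissue, with log2 fold changes of -0.33 ± 0.59 and 0.54 ± 0.34 in FFPE 18 h tissue. Both had low counts, with group means of 0.370 to 0.782 CPM for Fbl and 1.54 to 2.55 CPM for Nhp2l1 in these tissues. The missing calls therefore say little. Of the factors that assemble the particles, 0 of 11 were called with furan in any preservation, and of the debranching and trimming enzymes 0 of 7.

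Fixation went with larger changes, all upward. Between FFPE 18 h and frozen tissue 17 of 36 members tested rose and 0 fell, beside 26.6% of all 14843 genes tested called higher, 27.3% called lower and 53.9% called in either direction. Between FFPE 3 weeks and frozen tissue 23 of 39 rose and 0 fell (23% of all 14253 genes higher, 25.8% lower, 48.8% in either direction), and between FFPE 3 weeks and FFPE 18 h tissue 17 of 41 rose and 0 fell (14.9% of 14414 genes higher, 17.5% lower, 32.4% in either direction). The median log2 change of the members tested was 0.81, 2.302 and 1.39 in these comparisons, beside 0.01, -0.02 and -0.05 over all genes tested. These counts and medians cover members that passed the filter, which a member can pass through the fixed libraries alone. Among the 15 members that passed it within each preservation taken alone, 9, 11 and 11 rose and 0 fell. H/ACA box RNAs rose in 27, 29 and 27 of 31 tested, so the direction was shared with the other class of small nucleolar RNA. Leaving out single animals gave 10 to 15 rises for FFPE 18 h against frozen tissue, with 10 when control animal 6 or furan animal 44 was left out. In all 3 comparisons, 10 members rose. These fits treat pieces of the same liver as separate samples. With the animal as a block fewer members were called in each comparison, as given in the section on processing. All libraries of the fixed or longer fixed tissue lay above all of the other in 4 of 36 members at 18 hours over frozen, 8 of 39 at 3 weeks over frozen and 6 of 41 at 3 weeks over 18 hours, beside 8.64%, 7.78% and 3.86% of all genes tested.

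Snord22 had the smallest adjusted p. Its level over both treatments ran from 6.12 through a median of 7.39 to 11.9 CPM in the 8 frozen libraries, from 31.2 through 41.8 to 58.2 CPM in FFPE 18 h and from 95.2 through 114 to 130 CPM in FFPE 3 weeks tissue. The 3 preservations did not overlap. It was 5.35-fold higher in FFPE 18 h than in frozen tissue (log2 2.42 ± 0.10, adjusted p = 1.92e-12), 14.2-fold higher in FFPE 3 weeks than in frozen tissue (3.83 ± 0.12, adjusted p = 3.86e-18) and 2.63-fold higher in FFPE 3 weeks than in FFPE 18 h tissue (1.39 ± 0.09, adjusted p = 4.71e-12). Snord104, a guide for 28S ribosomal RNA, ran from 2.28 through 3.65 to 5.35 CPM in frozen, 8.71 through 16.3 to 26.6 CPM in FFPE 18 h and 25.1 through 37.2 to 41.7 CPM in FFPE 3 weeks tissue. Both fixed groups lay above all frozen libraries, at 4.02-fold (adjusted p = 2.46e-08) and 9.69-fold (adjusted p = 7.10e-14).

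Snord49b had the largest rise at 3 weeks among the members whose fixed and frozen libraries did not overlap. It did not pass the filter within frozen tissue and was tested through the fixed libraries, where it is high, so its p and fold are given as a description. Its 8 frozen libraries held 0 to 0.279 CPM, from 0 to 12 reads each, while FFPE 18 h libraries held 0.732 to 1.92 CPM and FFPE 3 weeks libraries 1.5 to 12.4 CPM. The rise was 8.45-fold at 18 hours (log2 3.08 ± 0.39, adjusted p = 1.39e-06) and 51.0-fold at 3 weeks (5.67 ± 0.48, adjusted p = 3.75e-10), both over frozen tissue. Snord8 guides U6 spliceosomal RNA. Frozen libraries held 0.397 through 0.544 to 1.33 CPM, FFPE 18 h libraries 0.357 through 1.14 to 2.10 CPM, and FFPE 3 weeks libraries 3.70 through 12.01 to 14.8 CPM. The first pair overlapped, with a log2 change of 0.86 ± 0.34 (adjusted p = 0.0392, and 0.105 with the animal as a block, which ends the call). Leaving out control animal 4 or 6, or furan animal 41, 43 or 44, also ended it (adjusted p of 0.0575 to 0.163). FFPE 3 weeks libraries were all above FFPE 18 h libraries (3.25 ± 0.34, adjusted p = 3.46e-08).

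Snord47, from Gas5, had a median of 2.23 CPM in frozen, 2.89 CPM in FFPE 18 h and 10.4 CPM in FFPE 3 weeks tissue. Its change was 0.54 ± 0.23 at 18 hours over frozen tissue (adjusted p = 0.0555, and 0.0335 with the animal as a block, which makes it a call) and 1.99 ± 0.27 at 3 weeks over 18 hours (adjusted p = 1.60e-06). Snord83b, in Rpl3, had 0.38 ± 0.22 (adjusted p = 0.158) and 2.20 ± 0.37 (adjusted p = 3.54e-05) in those comparisons. Snord16a, in Rpl4 and a guide for 18S ribosomal RNA, rose in both steps, by 1.39 ± 0.23 and 1.99 ± 0.30. Whether the step between 18 hours and 3 weeks exceeded the step before it was not tested for any member.

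Snord15b and Snord17, the 2 most counted RNAs, also rose in both fixed tissues over frozen tissue. Snord15b ran from 46.3 through 54.7 to 72.7 CPM in frozen, 59.4 through 91.1 to 109 CPM in FFPE 18 h and 134 through 177 to 191 CPM in FFPE 3 weeks tissue. It was 1.52-fold higher at 18 hours (adjusted p = 1.78e-05) and 3.05-fold higher at 3 weeks (adjusted p = 2.16e-12) than in frozen tissue, where the FFPE 18 h furan libraries overlapped frozen control libraries. Snord15a, in another part of the same host, was 2.62-fold and 5.22-fold higher than in frozen tissue (adjusted p = 5.11e-05 and 2.67e-07), with animal 3 among the frozen libraries. Snord17 was 2.27-fold and 3.28-fold higher (adjusted p = 0.00320 and 0.000333), and without animal 3 its log2 changes were 1.63 in place of 1.19 and 2.16 in place of 1.71. Snord89 changed by 0.37 ± 0.15 at 18 hours (adjusted p = 0.0436), a call that ended with no low-count filter (adjusted p = 0.0601) and without animal 2, 4, 6, 41, 42 or 44 (adjusted p of 0.0575 to 0.162), and by 1.77 ± 0.26 at 3 weeks (adjusted p = 2.69e-06).

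**Figure D4:**
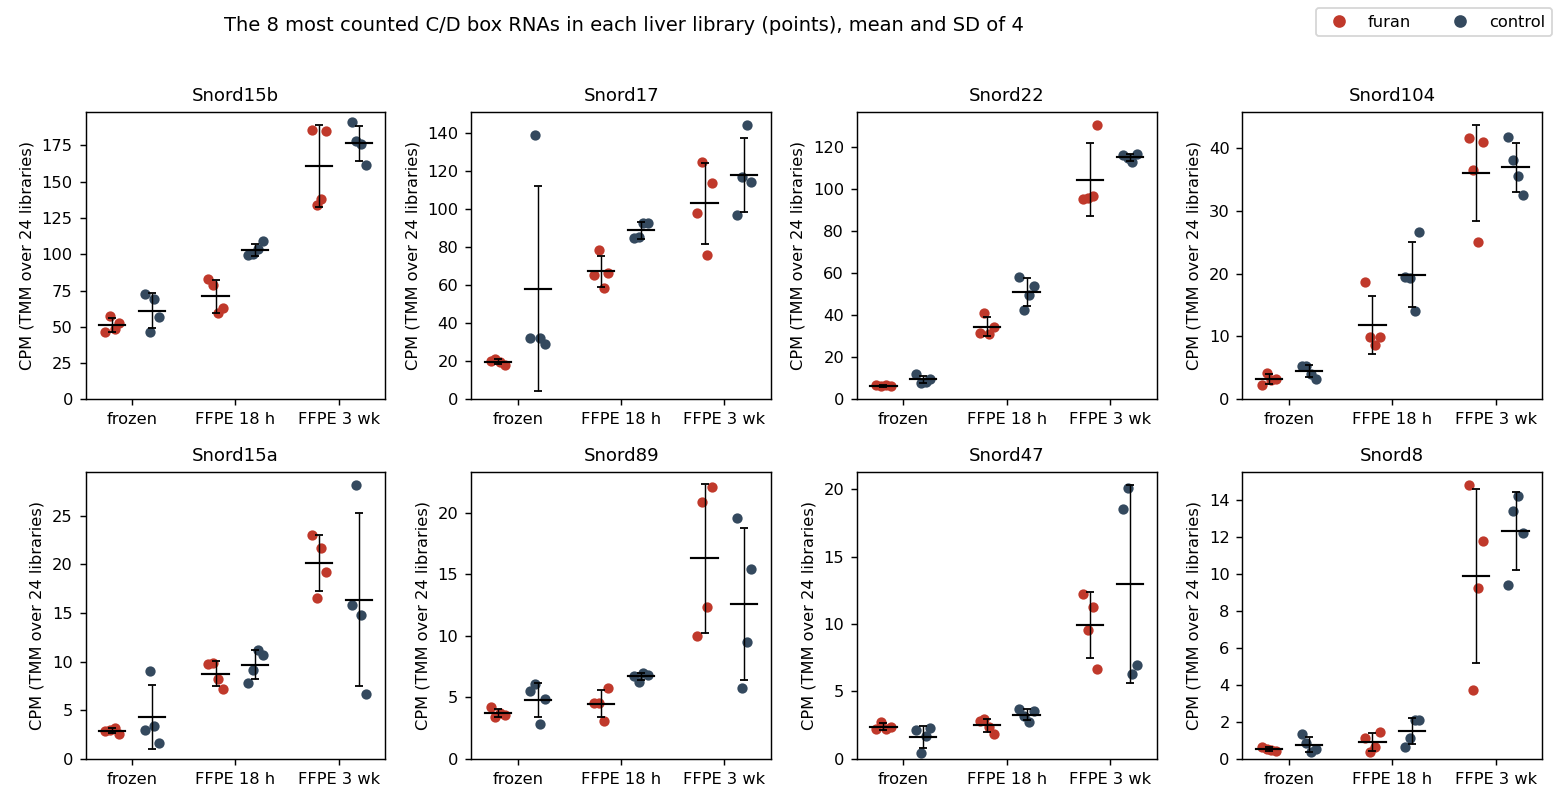
CPM, TMM-scaled over 24 libraries (vertical axes from 0), of the 8 C/D box RNAs with most counts, by preservation and treatment; points are libraries, lines the mean and bars the SD of 4. Snord22 climbs from 6.12 to 11.9 in frozen libraries through 31.2 to 58.2 to 95.2 to 130, and the frozen control point at 139 for Snord17 is animal 3.

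Other members were not called in any comparison, and Snord4a, Snord2 and Snord100 had the smallest errors among them. Snord2, in the translation factor gene Eif4a2, had a log2 change of -0.05 ± 0.24 at 18 hours (adjusted p = 0.889) and 0.77 ± 0.75 at 3 weeks (adjusted p = 0.416) over frozen tissue. Snord4a, in Rpl23a, had 0.16 ± 0.28 and 1.28 ± 0.65 (adjusted p = 0.641 and 0.111). Snord100, in Rps12, had -0.14 ± 0.38 and 1.49 ± 0.67 (adjusted p = 0.768 and 0.0669). DESeq2 called both Snord4a and Snord100 higher at 3 weeks over frozen tissue (adjusted p = 0.0336 and 0.0106). The errors at 3 weeks went with wide scatter among low counts: of members with a mean of 2 to 20 counts, 50.7% of values were 0 in FFPE 3 weeks libraries, with a median variance over mean of 11.6, against 12.8% and 3.59 in frozen libraries. Over all genes in that count range the shares of 0 were 48.3% and 15.1%, and the ratios 12.8 and 3.67.

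Relative to all genes, many hosts moved the other way from their RNAs, in numbers that depend on the scaling. Of 15 members that rose at 18 hours and had a tested host, 10 had a host that fell, 3 a host that rose and 2 a host with no call. At 3 weeks over frozen tissue the numbers were 11, 4 and 6 of 21, and between 3 weeks and 18 hours they were 3, 6 and 6 of 15. Scaling to library totals alone moves the median of all genes by 0.33, 0.42 and 0.10 (log2) in these comparisons, and the numbers then were 8, 3 and 10 of 21, 6, 11 and 9 of 26, and 0, 6 and 10 of 16. The numbers over frozen tissue include members that passed the filter through the fixed libraries alone, such as Snord49b. They were not taken for the 15 members that passed it within each preservation. Rps3 changed by -0.73 ± 0.07 at 18 hours and -0.76 ± 0.09 at 3 weeks over frozen tissue (adjusted p = 2.23e-08 and 8.50e-08), Snx5 by -0.51 ± 0.08 and -0.69 ± 0.12 (adjusted p = 1.20e-05 and 3.52e-05). With library totals Rps3 was still called lower (-0.40 and -0.34), and Snx5 at 18 hours (-0.18, adjusted p = 0.0469) and not at 3 weeks (-0.27, adjusted p = 0.0658). Snhg1 changed by -0.57 ± 0.13 at 18 hours (adjusted p = 0.000737, and 0.100 with library totals, which ends the call) and had 0.05 ± 0.21 at 3 weeks (adjusted p = 0.872). Chd8, host of Snord8, went up, by 0.62 ± 0.07 and 0.52 ± 0.10 (adjusted p = 5.97e-07 and 0.000109), and Gas5, host of Snord47, rose at 3 weeks by 0.77 ± 0.12 (adjusted p = 1.15e-05). All 42 hosts were tested, with 8 higher and 22 lower at 18 hours and 9 higher and 17 lower at 3 weeks over frozen tissue, and 12 higher and 13 lower, and 15 higher and 9 lower, with library totals.

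**Figure D5:**
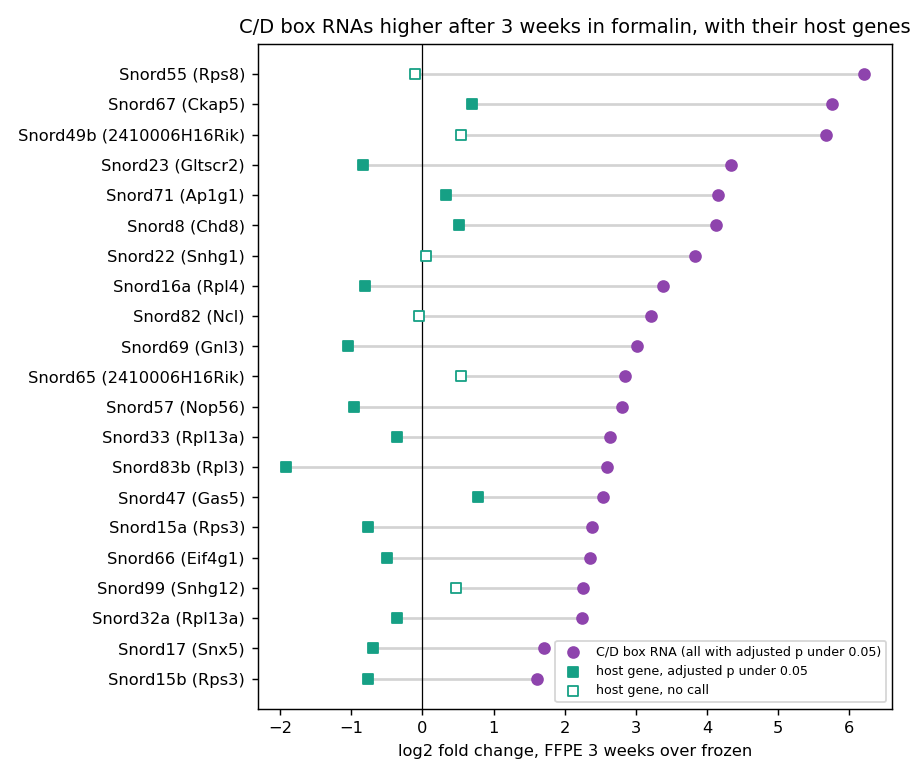
Log2 fold change, FFPE 3 weeks over frozen (horizontal axis, 8 libraries each), of 21 C/D box RNAs with an adjusted p below 0.05 (circles) and of the host gene named in brackets (squares, filled where the host has an adjusted p below 0.05); Snord104 and Snord89 have no host in the table. Circles run from 1.61 for Snord15b to 6.199 for Snord55, which had 6 reads over the 8 frozen libraries. Members that passed the filter through the fixed libraries alone are included.

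Genes that make and mature the particles went down in fixed tissue in most cases with TMM scaling, with fewer calls with library totals. Nop58 changed by -0.68 ± 0.14 at 18 hours and -0.97 ± 0.18 at 3 weeks over frozen tissue (adjusted p = 0.000468 and 7.78e-05) and Nop56 by -0.55 ± 0.11 and -0.97 ± 0.23 (adjusted p = 0.000195 and 0.00124). Fbl and Nhp2l1, both with low counts, were not called. With library totals Nop58 was still called lower (-0.35 and -0.55) and Nop56 was not (adjusted p = 0.0857 and 0.0545). Of 11 assembly factors 9 fell and 2 rose at 18 hours, and 8 fell and 1 rose at 3 weeks, against 3 lower and 2 higher, and 5 lower and 2 higher, with library totals. Tgs1, the cap hypermethylase, rose in both (0.52 ± 0.10 and 0.56 ± 0.17, adjusted p = 0.000137 and 0.00833). Of 7 debranching and trimming genes 3 fell and 1 rose at 18 hours and 4 fell and 1 rose at 3 weeks, against 1 lower and 4 higher, and 0 lower and 2 higher, with library totals. Dbr1, the lariat debranching enzyme, changed by -0.72 ± 0.09 and -0.81 ± 0.22 (adjusted p = 1.20e-06 and 0.00347, and 0.00104 and 0.137 with library totals). The 6 hepatocyte markers fell in each FFPE comparison under either scaling, and their summed level was 159883 to 187196 CPM in frozen libraries and 54005 to 71773 CPM in FFPE 3 weeks libraries. The part of this fall in the C/D box levels was not tested.

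Small RNAs of this class serve as reference genes for microRNA assays, and a list of 9 so used was examined. Of these, 7 had a row, and none of the 4, 4 and 2 tested in frozen, FFPE 18 h and FFPE 3 weeks tissue was called with furan. At 18 hours over frozen tissue 1 of 5 rose, Snord95, in Rack1 (1.02 ± 0.35, adjusted p = 0.0181), and at 3 weeks over frozen tissue 1 of 5 rose, Snord47. Snord96a, tested everywhere, had furan log2 fold changes of -0.14 ± 0.38, 0.12 ± 0.55 and -0.53 ± 1.67 in frozen, FFPE 18 h and FFPE 3 weeks tissue, none called. Its coefficient of variation over 8 libraries was 0.263, 0.493 and 0.770 in these tissues, against 0.178, 0.218 and 0.130 for Snord15b.

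The 4 RNAs from the introns of Rpl13a have been studied for a role in lipotoxic and oxidative stress in mouse cells. In frozen, FFPE 18 h and FFPE 3 weeks tissue 2, 3 and 2 of them were tested with furan, and none was called. The fit over all 24 libraries called Snord34 lower with furan in FFPE 3 weeks tissue. It held 0, 1, 0 and 0 reads there in furan livers and 14, 10, 9 and 22 reads in control livers. Snord35a held 22, 24, 17 and 25 reads in frozen furan livers and 0, 0, 11 and 7 reads in frozen control livers. All furan libraries were higher, and the log2 fold change was 2.14 ± 0.78 (edgeR adjusted p = 0.177), and such no overlap with furan higher was seen in 7.2% of genes tested. In FFPE 18 h tissue it held 15, 11, 5 and 17 reads in furan livers and 8, 10, 6 and 11 reads in control livers, which overlap. Snord32a and Snord33 rose in both fixed tissues over frozen, by 0.64 ± 0.26 and 1.05 ± 0.40 at 18 hours (adjusted p = 0.0416 and 0.0338) and by 2.25 ± 0.47 and 2.64 ± 0.79 at 3 weeks (adjusted p = 0.000286 and 0.00724), while Snord35a and Snord34 had 0.58 ± 0.49 and 0.78 ± 0.43 at 18 hours (adjusted p = 0.335 and 0.138) and -0.17 ± 1.17 and -0.09 ± 0.48 at 3 weeks (adjusted p = 0.916 and 0.897). Their host Rpl13a changed by -0.28 ± 0.08 and -0.36 ± 0.11 (adjusted p = 0.00557 and 0.00973), and by 0.05 and 0.06 with library totals (adjusted p = 0.591 and 0.663). Among 10 RNAs listed for Gas5 and 8 for Snhg1, Snord47 and Snord22 were the members with a row, and of 8 listed for cleavage of the ribosomal precursor the member with a row was again Snord22. The others were not analysed here. Of the 4 listed for the imprinted region, Snord64 had 40 counts in all libraries together and was tested in no comparison with furan.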

How the data were processed

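Per the submitters' processing notes, the authors' tools were featureCounts 1.4.4, STAR 2.3.0 and CASAVA 1.8.2, on build mm9. They deposited raw read counts, 1 column per library, for 24015 gene symbols and 24 libraries. Strand and multi-mapping settings, and the treatment of reads shared by a small RNA and its host, are not given in the sources used here. The files hold no coordinates, and hosts, chromosomes and sequences came from GENCODE M21 and lengths from the RefSeq table, both of build GRCm38, so no positions are printed.

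Counts were tested in R 4.3.3 with edgeR 4.0.16 (TMM, filterByExpr, robust quasi-likelihood test, two-sided, Benjamini-Hochberg adjusted over all genes tested, threshold 0.05). The furan comparisons were fitted separately by preservation (4 furan against 4 control animals) and preservations as the mean of both treatments, 8 against 8 libraries. The script was checked on simulated counts. CPM of single RNAs are TMM-scaled over 24 libraries, summed CPM use library totals, and ± after a log2 fold change is the SE. Alternatives were DESeq2 1.42.0 and its size factors, library totals, no low-count filter, a joint fit, leaving out each animal (for the summed CPM, control animal 3, chosen after seeing the data), thinning (seed 1) and the animal as replicate block. Pieces with the same animal number come from the same liver, per the labels' protocols, and same-numbered libraries deviated together with r of 0.0275 to 0.246 (FFPE 18 h and frozen), 0.0245 to 0.0918 (FFPE 3 weeks and frozen) and -0.00528 to 0.0818 (FFPE 3 weeks and FFPE 18 h) over 14901 genes.

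Named with the value in every sample were the 8 members with most counts that pass the filter in each preservation, every member called with furan and, for each preservation comparison, the 5 largest rises and falls among called members with no overlap. Tested members of the fixed lists and 3 members with no call and the smallest errors were named by their values. Snord55, Snord34, Snord87 and Snord91a were named after their values were seen. Hosts, particle genes and markers were also scaled to library totals, an alternative chosen after seeing the data. The members and lists were chosen with earlier results of these data known. Counting limits cover counting error only.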

Additional observations from a re-analysis of the deposited data

Results flagged for a closer look

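Within groups of 4 libraries, 96 sets of values were screened for a single library far from the other 3, and chance marks about 1 in 20 such sets. Snord17 stood at 139 CPM in the frozen control library of animal 3, against 28.9 to 32.5 CPM in the other 3. Snord104 stood at 18.65 CPM in the FFPE 18 h furan library of animal 41, against 8.71 to 9.94 CPM. That library was also the deepest of its group, at 28.1 megacounts (M), against 23.9 to 24.1 M, and the FFPE 18 h control library of animal 3 had 25.3 M, against 22.9 to 23.3 M. Snord22 stood at 130 CPM in the FFPE 3 weeks furan library of animal 44, against 95.2 to 96.7 CPM. A part of depth in any of these levels was not tested.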

How the results depend on the processing

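Of 1625 values of the named members under alternatives, none that was called in either fit changed sign, and 50 that were called in neither did, 4 of them with library totals (Snord2 and Snord100 at 18 hours over frozen tissue among them, at 0.28 and 0.18). For furan in frozen tissue, where edgeR called 0 members, the DESeq2 test called 1, the fit over all 24 libraries 2 (Snord17 and Snord22), and leaving out single animals 0 to 3, with 3 without control animal 3. In FFPE 3 weeks tissue the fit over all 24 libraries called 3 (Snord91a and Snord34 lower, Snord87 higher), each with 0 to 56 reads per library there. For FFPE 18 h over frozen tissue leaving out single animals gave 10 to 15 calls in place of 17. With the animal as replicate block the calls were 16, 17 and 13 for FFPE 18 h over frozen, FFPE 3 weeks over frozen and FFPE 3 weeks over FFPE 18 h, of which 14, 17 and 13 were shared with the fit without it, and 0 for each interaction; among the named members it changed no other call than those of Snord8 and Snord47. Scaling to library totals alone moved the median of all genes by up to 0.42 (log2) for FFPE over frozen and gave 23, 28 and 18 calls, all higher. In the same order, the median log2 change was then 1.143, 2.732 and 1.499 in members tested. Over all genes tested it was 0.342, 0.404 and 0.055. The share of all genes called is not given for any alternative here. The counts of calls alone therefore cannot tell a member result from a general shift. With no low-count filter 1 member was called lower in each comparison of FFPE with frozen tissue. Summed C/D box CPM with TMM scaling were 104.6 in furan frozen and 573 in control FFPE 3 weeks libraries. Without Snord15b the sums were 45.4 in furan and 81.5 in control frozen livers, 163 and 212 in furan and control FFPE 18 h livers, and 425 and 443 in furan and control FFPE 3 weeks livers. With the frozen library of animal 3 also left out, the control frozen livers averaged 57.6 ± 2.04 (SD, n = 3). Thinning gave 36.5 members in frozen and 43.5 in FFPE 18 h libraries. The cause of these shifts was not tested, apart from the smaller number of samples or counts that leaving out and thinning bring. Depth limits what can be said of 23 members, which were tested in no furan comparison. The labels name separate animals, and 4 per group limit the precision.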
